A study of Mus musculus with 4 samples.

Results

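The core circadian clock genes were followed in RNA of pooled pancreatic islets, small groups of endocrine cells that include the insulin-producing beta cells. The set held 10 genes taken by name out of 23235 gene symbols, namely Arntl, Clock, Per1, Per2, Cry1, Cry2, Nr1d1, Nr1d2, Dbp and Nfil3. No measured value entered the choice of names, although earlier results of these data were known when they were chosen. All 10 had 1 row with the status OK in each of the 4 libraries and passed the filter of a mean FPKM of at least 1. FPKM is a fragment number scaled by transcript length and by library total, so levels can be compared between genes.

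Wild type (WT) and KR mutant mice of strain C57BL/6 were each studied fasted and refed, which gives 4 groups of 1 library. KR denotes, from knowledge of the study, a FoxO1 allele that encodes arginine where the transcription factor has lysines subject to acetylation. Islets of 3 mice per genotype were combined before RNA was isolated, so each library is a pool and no difference between 2 libraries has a replicate check. The titles give a fast of 48 h and the extraction protocol one of 24 h, in each case followed by 6 h of refeeding in the refed groups. The labels give no age, sex, light schedule or hour of collection. Many of these genes change their level with the time of day, so an effect of feeding state and one of the hour of collection cannot be told apart here.

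Islet hormone genes were high, with an FPKM of 3498 to 12196 for Ins1 (insulin I) and 21258 to 26030 for Gcg (glucagon), whereas the acinar genes Cpa1 and Pnlip stayed at or under 0.201 and the acinar gene Cela1 at 35.0 to 57.4. As implied by the deposited bounds of the FPKM, the fasted KR library was 1.01 times as deep as the fasted WT library, the refed WT library 0.683 times and the refed KR library 0.418 times. Between 114 and 4192 fragments stood behind a clock gene's value in a library. Where "bounds" are given below they are the deposited lower and upper limits, which cover counting error and not the spread between mice.

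The clock of a mammalian cell is a feedback loop of transcription. CLOCK and BMAL1, the protein of Arntl, pair up and switch on genes through a DNA element called the E-box, among them the Per and Cry genes, whose proteins then repress the pair. A further loop is made by the REV-ERB receptors (Nr1d1 and Nr1d2), which repress Arntl and Nfil3 at elements where ROR receptors activate. Another is made by DBP, an activator, and NFIL3, a repressor, which compete for D-box elements. In beta cells the clock is known to set the daily course of insulin secretion, and feeding time is known to shift clocks outside the brain.

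Promoters were looked at because several of these genes moved together between fasted and refed islets, as described below. Letters were searched on both strands of the 250 bases before each start in RefSeq (build GRCm38.p6), where 9 of the 10 genes had 13 starts. Per2 had no window among the sequences used and was not searched. The letters were CACGTG for the E-box, TTATGTAA or TTACGTAA for the D-box, TAGGTCA or TGGGTCA for the core shared by REV-ERB and ROR elements, TGACGTCA for the cyclic AMP response element and GTAAACA for a FoxO site. No 2 matches overlapped. The 3 windows of genes that fell with refeeding and held a match are shown 5′ to 3′ on the strand of the gene, with matches in capitals. The Cry1 window lies at chr10:85185055-85185304 (minus strand), that of the upstream start of Per1 at chr11:69098699-69098948 (plus strand) and that of Nfil3 at chr13:52981040-52981289 (minus strand).
Cry1: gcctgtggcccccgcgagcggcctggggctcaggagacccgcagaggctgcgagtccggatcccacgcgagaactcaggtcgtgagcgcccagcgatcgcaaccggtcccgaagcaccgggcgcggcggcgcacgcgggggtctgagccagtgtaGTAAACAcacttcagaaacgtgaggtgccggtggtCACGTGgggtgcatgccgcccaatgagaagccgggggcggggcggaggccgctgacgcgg
Per1: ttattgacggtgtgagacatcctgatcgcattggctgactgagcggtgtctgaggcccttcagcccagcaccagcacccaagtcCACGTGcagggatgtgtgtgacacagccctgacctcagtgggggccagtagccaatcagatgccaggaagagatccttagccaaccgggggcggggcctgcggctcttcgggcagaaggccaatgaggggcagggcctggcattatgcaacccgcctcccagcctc
Nfil3: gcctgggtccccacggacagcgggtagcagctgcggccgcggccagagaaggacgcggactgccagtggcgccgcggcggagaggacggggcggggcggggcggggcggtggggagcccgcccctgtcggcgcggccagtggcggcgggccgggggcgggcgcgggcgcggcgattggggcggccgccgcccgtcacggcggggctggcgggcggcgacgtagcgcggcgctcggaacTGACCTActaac

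The Cry1 window held a FoxO site 95 to 89 bases and an E-box 60 to 55 bases before the start. The Per1 window held an E-box 166 to 161 bases before the start, and the Nfil3 window the REV-ERB and ROR core, on the opposite strand, 12 to 6 bases before it. Among all 32851 promoter windows of this length, 6.02% held the E-box, 5.38% the REV-ERB and ROR core and 3.17% the FoxO site. Of the 13 windows searched, 2 held the E-box, 1 the REV-ERB and ROR core and 1 the FoxO site. The other Per1 window and those of Cry2 and Nr1d1, which also fell, held no match. The D-box letters, in 0.931% of all windows, and the cyclic AMP element, in 1.55%, occurred in 0 of the 13 windows. A match describes the letters and not a bound site.

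Fasted and refed libraries of each genotype were set against each other to see how clock gene levels followed feeding. Per1, Per2, Cry1, Cry2, Nr1d1 and Nfil3, which all encode repressors, fell with refeeding and were lower in the refed library of both genotypes. The activator genes Clock, Arntl and Dbp and the repressor gene Nr1d2 did not pass the test. Of the 10 genes 6 fell, 0 rose and 4 did not pass, in limma's model with feeding state and genotype as additive terms, at a Benjamini-Hochberg adjusted p under 0.05. In that test 29.2% of the 11953 tested genes fell, 27.7% rose and 56.9% passed in either direction, so passing this test was common. The median change of the 10 genes was -0.43 on the log2 scale, against -0.01 over all tested genes. At an unadjusted p under 0.05 there were still 0 clock genes higher in the refed islets, and limma-voom also called 0 higher.

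**Figure D1:**
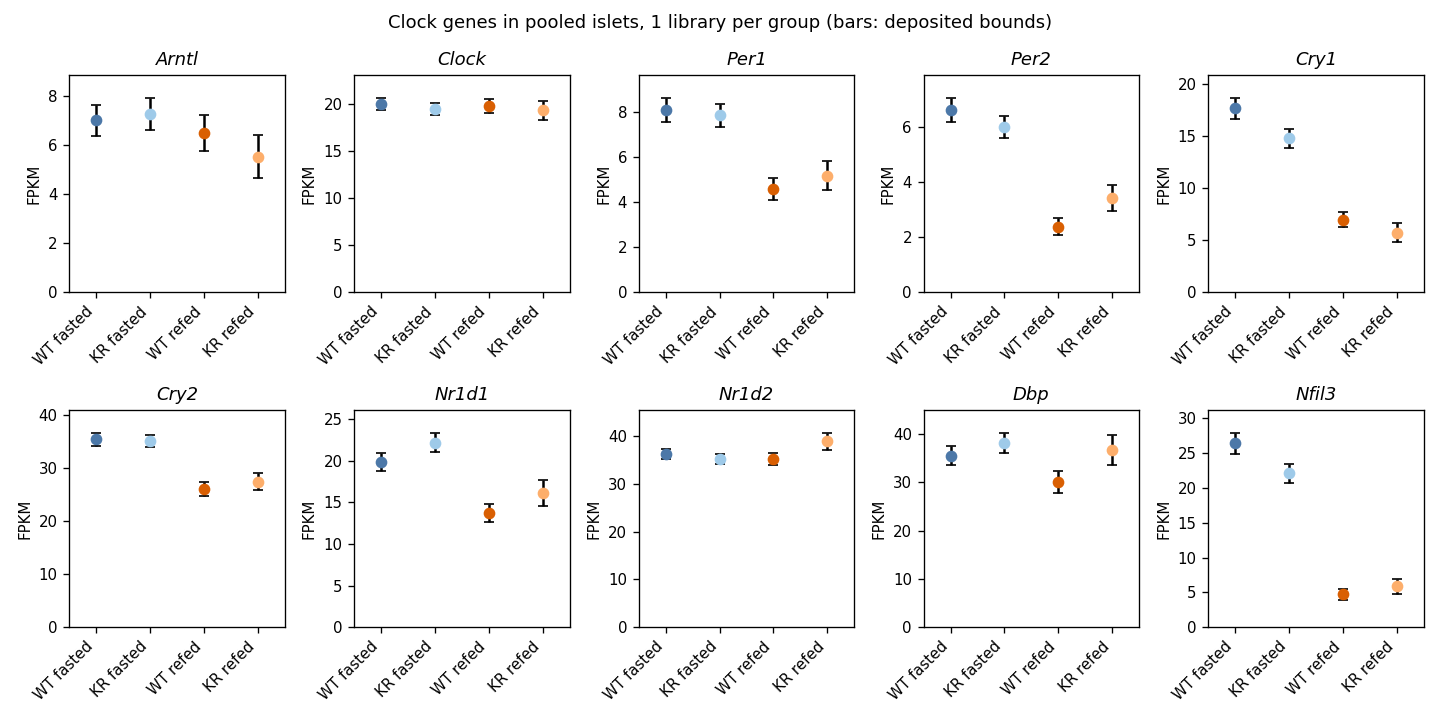
FPKM (y axis, from 0) of each core clock gene in the 4 libraries, 1 point per library with the deposited bounds as bars. Nfil3, Cry1, Per1, Per2, Cry2 and Nr1d1 are lower in both refed libraries than in both fasted ones, whereas Clock is level at 19.3 to 20.0.

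Clock, which encodes the partner of BMAL1, had the narrowest range of the set. Its FPKM was 20.0 fasted and 19.8 refed in WT islets, and 19.5 fasted and 19.3 refed in KR islets. The bounds of the 4 libraries overlapped, and the highest exceeded the lowest 1.03-fold. Arntl, which encodes BMAL1, had an FPKM of 7.01 fasted and 6.50 refed in WT islets, and 7.27 fasted and 5.53 refed in KR islets. Both refed values lay below both fasted ones, but the shared change of -0.22 ± 0.09 (SE, 4 libraries) did not pass (adjusted p = 0.0751, and 0.0683 to 0.205 over 9 alternatives). The bounds were apart in the KR pair and overlapped in the WT pair.

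Cry1, the cryptochrome gene that encodes the stronger repressor of the loop in mouse cells, had the largest shared fall among the PER and CRY genes. Its FPKM was 17.6 fasted and 6.98 refed in WT islets, and 14.8 fasted and 5.74 refed in KR islets. Fasted and refed libraries did not overlap in either genotype, and the log2 ratio was -1.22 in WT and -1.23 in KR. The shared fall was 1.22 ± 0.08 (adjusted p = 8.88e-06), and 1% of tested genes had a shared change at least as low. In WT islets alone, and without a pseudocount, the FPKM of Cry1 fell by 60.4% and that of Per2 fell by 64.0%. Cry2, the other cryptochrome gene, was more abundant and moved less, with an FPKM of 35.5 fasted and 26.1 refed in WT islets, and 35.2 fasted and 27.5 refed in KR islets. It fell by 0.39 ± 0.06 (adjusted p = 0.00111), and its bounds were apart in both genotypes. A non-coding gene that overlaps Cry2 in the deposited coordinates, D930015M05Rik, had an FPKM under 2 in each library.

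Per2, a period gene whose protein limits CLOCK and BMAL1, had an FPKM of 6.60 fasted and 2.38 refed in WT islets, and 5.98 fasted and 3.40 refed in KR islets. Each refed library lay below each fasted one, and the refed KR value also lay above refed WT with bounds apart. Per2 fell by 0.92 ± 0.13 (adjusted p = 0.000439), with a log2 ratio of -1.17 in WT and -0.67 in KR. Per1, a period gene that glucocorticoids and cyclic AMP are known to induce directly, had an FPKM of 8.08 fasted and 4.57 refed in WT islets, and 7.85 fasted and 5.18 refed in KR islets. It fell by 0.61 ± 0.09 (adjusted p = 0.000609), and its bounds were apart in both genotypes. Per3, another period gene and not among the 10, was higher in both refed libraries. Its FPKM was 4.81 fasted and 5.51 refed in WT islets, and 5.25 fasted and 6.71 refed in KR islets, with a shared change of 0.23 ± 0.09 that did not pass (adjusted p = 0.0574, and 0.00688 to 0.156 over 9 alternatives, 2 of which called it higher).

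Of the REV-ERB genes, Nr1d1 passed the test and Nr1d2 did not. Nr1d1, which encodes REV-ERB alpha, had an FPKM of 19.8 fasted and 13.7 refed in WT islets, and 22.2 fasted and 16.1 refed in KR islets. It fell by 0.47 ± 0.07 (adjusted p = 0.000578), with bounds apart in both genotypes. Nr1d2, which encodes REV-ERB beta, had an FPKM of 36.2 fasted and 35.2 refed in WT islets, and 35.1 fasted and 38.8 refed in KR islets. Its shared change of 0.05 ± 0.07 did not pass (adjusted p = 0.553), and the difference between the 2 receptors was not itself tested. Thra, the thyroid receptor gene that overlaps Nr1d1 in RefSeq, fell too, by 0.61 ± 0.07 (adjusted p = 0.00012). Whether reads were assigned by strand is not given in the sources used here, so reads of the pair may not be fully separate, although their deposited coordinates do not overlap.

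Nfil3, the D-box repressor, spanned the widest range of the 10 genes, 5.56-fold between its highest and lowest library. Its FPKM was 26.4 fasted and 4.75 refed in WT islets, and 22.1 fasted and 5.85 refed in KR islets. All fasted values stood far above all refed ones, with a log2 ratio of -2.25 in WT and -1.75 in KR. Nfil3 fell by 2.00 ± 0.11 (adjusted p = 5.63e-06), and 0.243% of tested genes had a shared change at least as low. Dbp, the D-box activator, had an FPKM of 35.5 fasted and 30.0 refed in WT islets, and 38.2 fasted and 36.7 refed in KR islets. Bounds were apart in the WT pair and overlapped in the KR pair, and the shared change of -0.14 ± 0.07 did not pass (adjusted p = 0.106). Sphk2, a sphingosine kinase gene that overlaps Dbp in the deposited coordinates, fell by 0.86 ± 0.06, and the part of reads from the overlap in the level of Dbp was not tested. The FPKM of Nfil3 was 0.742 times that of Dbp in fasted and 0.158 times in refed WT islets, and 0.578 and 0.159 times in KR islets, so the repressor lay below the activator in every library.

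**Figure D2:**
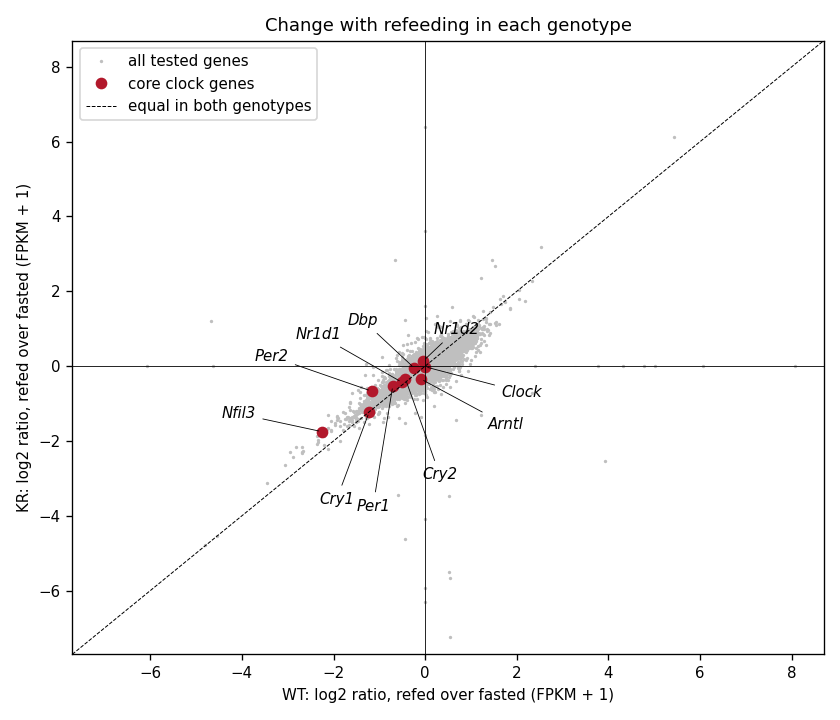
Log2 ratio of refed over fasted islets, on FPKM + 1, in WT (x axis) against KR (y axis), for all 11953 tested genes (grey) and the 10 core clock genes (red). Nfil3 at -2.25 and -1.75 and Cry1 at -1.22 and -1.23 lie far down the diagonal, and Per2 lies above it at -1.17 and -0.67.

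Single pairs of libraries allow a description without a test. In WT 3 of the 10 genes, Per2, Cry1 and Nfil3, were at least 2-fold lower in refed islets, where 2.4% of all tested genes were. In KR 2 of them, Cry1 and Nfil3, were, where 1.75% of all tested genes were, and 1.43% of tested genes were at least 2-fold lower in both genotypes. Bounds were apart and lower in the refed library for 7 of 10 genes in WT, beside 30.9% of all tested genes, and for 7 of 10 in KR, beside 29% of all. Nr1d2 was the 1 gene with bounds apart and higher, in KR, as were 23.1% of all tested genes.

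The order of levels also changed with refeeding. In fasted WT the FPKM ran from Nr1d2, Dbp and Cry2, whose bounds overlapped, through Nfil3, Clock and Nr1d1, then Cry1, to Per1, Arntl and Per2. In fasted KR the same 3 genes were at the top with overlapping bounds and Per2 was again the lowest. In refed WT Nfil3 took the eighth place, with bounds overlapping those of Per1 below it. In refed KR it took the sixth, with bounds overlapping those of Cry1. Per2 was the lowest in all 4 libraries.

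Most of the other tested clock genes fell as well. Of 12 further clock genes 8 were expressed highly enough to be tested. Of these 6 fell, 0 rose and 2 did not pass, beside 29.2% of all tested genes that fell and 27.7% that rose. Their median change was -0.72 on the log2 scale. Ciart, listed under its older symbol Gm129 and coding for a repressor of CLOCK and BMAL1, had an FPKM of 13.2 fasted and 2.41 refed in WT islets, and 12.4 fasted and 3.09 refed in KR islets. It fell by 1.89 ± 0.10 (adjusted p = 5.02e-06), beside 2.00 for Nfil3. The repressor genes Bhlhe40 and Bhlhe41, which encode DEC1 and DEC2, fell by 0.99 ± 0.12 (adjusted p = 0.000227) and 0.57 ± 0.07 (adjusted p = 0.000221).

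Rora, which encodes an activator that opposes the REV-ERBs, fell by 0.61 ± 0.09 (adjusted p = 0.00069). Of the 2 relatives of Dbp, Hlf fell by 0.83 ± 0.12 (adjusted p = 0.000502), whereas Tef, at an FPKM of 23.3 to 28.4, had a change of 0.14 ± 0.07 that did not pass (adjusted p = 0.0918, with 0.0325 to 0.221 over 9 alternatives). Npas2, Arntl2, Rorb and Timeless were under a mean FPKM of 1 and were not tested. Npas2, a paralogue of Clock, had its highest FPKM at 0.686.

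**Figure D3:**
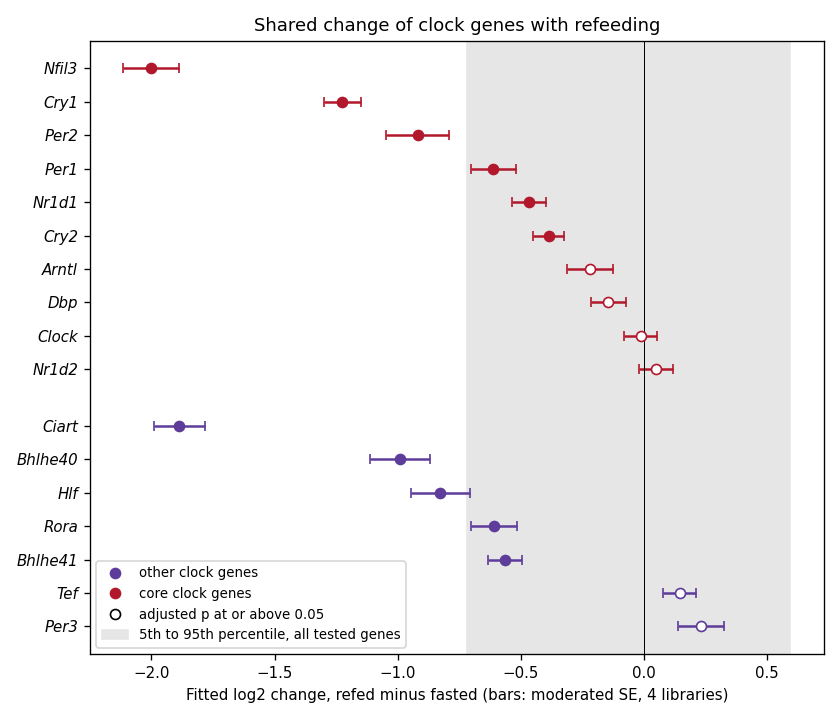
Fitted log2 change between refed and fasted islets (x axis) of the 10 core clock genes (red) and further tested clock genes (purple), with moderated SE over 4 libraries as bars. Filled points passed the test, and the grey band from -0.72 to 0.60 holds the 5th to 95th percentile of all tested genes, with Nfil3, Ciart, Cry1, Bhlhe40, Per2 and Hlf to the left of it.

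Of 9 genes of clock protein turnover 2 rose, 3 fell and 4 did not pass, with a median change of -0.12, which is near the shares over all tested genes, of which 27.7% rose and 29.2% fell. Btrc and Fbxw11 encode the 2 beta-TrCP proteins that mark PER proteins for degradation, and Btrc rose by 0.33 ± 0.07 (adjusted p = 0.00353) while Fbxw11 fell by 0.58 ± 0.06 (adjusted p = 0.000102). The casein kinase gene Csnk1e fell by 0.34 ± 0.08 (adjusted p = 0.00841, and 0.0669 at the highest of 9 alternatives), Gsk3b fell by 0.45 ± 0.07 and Nono, a PER-binding protein gene, rose by 0.23 ± 0.06 (adjusted p = 0.0134, and 0.0652 at the highest of 9 alternatives).

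Of 7 tested genes of REV-ERB corepressors and of the NAD and acetylation link to the clock, 5 fell, 0 rose and 2 did not pass. Over all tested genes 29.2% fell and 27.7% rose. The median change of the 7 was -0.33. The nuclear corepressor gene Ncor1 fell by 0.48 ± 0.06 (adjusted p = 0.000275). Nampt, the rate-limiting enzyme gene of NAD salvage, fell by 0.43 ± 0.06 (adjusted p = 0.000622). Sirt1, the NAD-dependent deacetylase that acts on BMAL1, PER2 and FoxO1, had an FPKM of 8.22 fasted and 8.67 refed in WT islets, and 8.42 fasted and 7.77 refed in KR islets and did not pass (adjusted p = 0.879). A list of 11 genes that are rhythmic in most mouse tissues beyond the core set shares some genes with those counted above. Of the 11, 5 fell, 0 rose and 6 did not pass, beside the same shares of all tested genes, at a median change of -0.17. Tsc22d3 and Tspan4 were among the 6, at 13.2 to 14.7 and 4.01 to 4.20 FPKM.

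Markers of cell types moved with refeeding as well, in both directions. Over all tested genes 29.2% fell and 27.7% rose. Of the 4 tested endothelial genes 3 fell and 0 rose, and the FPKM summed over the 5 listed was 14.7 fasted and 6.34 refed in WT islets, and 9.03 fasted and 5.01 refed in KR islets. Of 6 stellate cell and fibroblast genes 5 fell and 1 rose. Their sum was 34.6 fasted and 22.2 refed in WT islets, and 36.5 fasted and 28.8 refed in KR islets. No listed marker of either type was at 0 in all libraries. Of 6 tested beta cell genes 4 rose and 0 fell, both tested acinar genes rose, and of 3 tested duct genes 2 rose and 0 fell. The 1 PP cell gene rose, and of 3 delta cell genes 1 rose and 0 fell. Of 6 macrophage genes 2 fell and 0 rose, and of 2 tested adipocyte genes 1 fell and 0 rose. Alpha cell genes and those of neurons and glia each had 1 that rose and 1 that fell, and 0 of 2 tested B and T cell genes passed. The part of these cells, and of the lower depth of the refed libraries, in the fall of the clock genes was not tested. In whole islets fewer cells of a type and less RNA per cell cannot be told apart.

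KR and WT islets were compared within each feeding state, the question being whether the clock genes differ between the genotypes. The acetylation of FoxO1 itself is not measured in these RNA data. None of the 10 genes passed the test of the shared KR difference, in which 1.26% of the 11953 tested genes did. Of all genes called, 47.7% were higher in KR, and 59.8% after the libraries were rescaled by the median of ratios. At an unadjusted p under 0.05 there were 3 clock genes, beside 16.4% of all tested genes, and limma-voom called 0. The 3 were Cry1, at -0.24 ± 0.08 (adjusted p = 0.174), Dbp, at 0.19 ± 0.07 (adjusted p = 0.229), and Nr1d1, at 0.19 ± 0.07 (adjusted p = 0.237), each with KR on the same side of WT in both feeding states. Over 9 alternatives the adjusted p ran from 0.086 to 1 for Cry1, from 0.0949 to 1 for Dbp and from 0.13 to 1 for Nr1d1. The median difference of the 10 genes was 0.04, against -0.04 over all tested genes.

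Markers of cell types differed between genotypes in the same test, in which 0.602% of tested genes were called higher and 0.661% lower in KR. Of 6 tested beta cell genes 4 were higher in KR, among them Ins1, by 1.34 ± 0.16 (adjusted p = 0.00792), and the glucose transporter gene Slc2a2, by 0.69 ± 0.08 (adjusted p = 0.00528). Both tested genes of B and T cells were higher, and the FPKM summed over the 4 listed was 9.31 in WT and 20.7 in KR when fasted, and 9.67 and 14.7 when refed, with Cd3e at 0 in every library but fasted KR. Both tested genes of the adipocyte list, Lpl and Fabp4, were lower. Lpl had an FPKM of 173.2 in WT and 132.1 in KR when fasted, and 178.3 and 140.3 when refed. Fabp4 stood at 5.06 and 1.58 when fasted, and at 3.38 and 0.850 when refed. The other 2 listed, Adipoq and Plin1, were at 0 in all 4 libraries, so the list does not show that adipocytes were present. Of 3 tested delta cell genes 1 was higher in KR, Rbp4, by 0.50 ± 0.07 (adjusted p = 0.0113). Of 2 tested genes of neurons and glia 1 was higher, Th, by 0.55 ± 0.07 (adjusted p = 0.00792). No tested gene of alpha, PP, acinar, duct or endothelial cells, macrophages, or stellate cells and fibroblasts passed. The part of any difference in cell types in the KR and WT values of the clock genes was not tested.

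**Figure D4:**
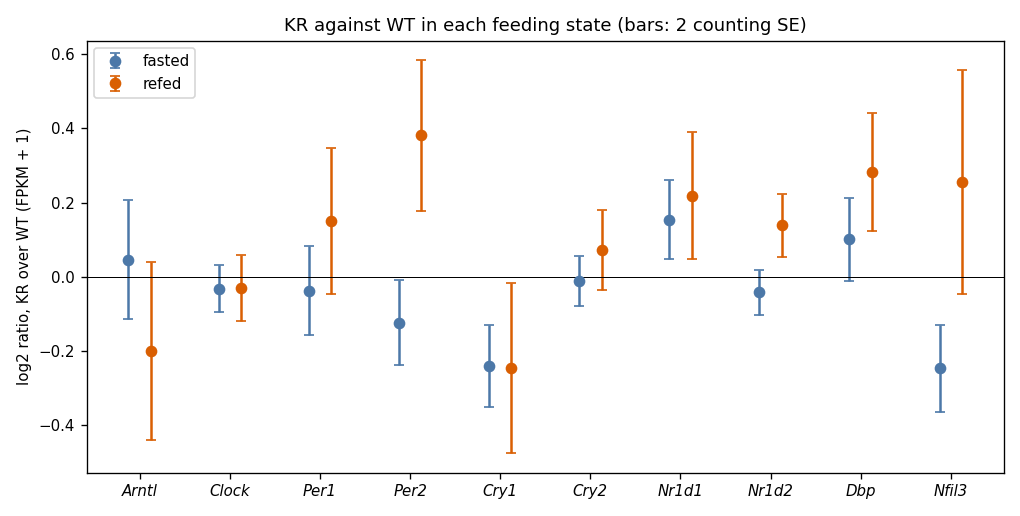
Log2 ratio of KR over WT islets, on FPKM + 1 (y axis), for each core clock gene in the fasted (blue) and the refed pair (orange), with 2 counting SE as bars. All ratios lie between -0.25 and 0.38, with Per2 in the refed pair as the highest.

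Within the fasted pair the bounds of 3 of the 10 genes were apart, beside 22.9% of all tested genes. Cry1 and Nfil3 were lower in fasted KR and Nr1d1 was higher. Within the refed pair the bounds of 3 were apart as well, Per2, Nr1d2 and Dbp, all higher in KR, beside 15.3% of all tested genes apart and 3.51% apart and higher. With bounds 2 times as wide 0 of the 10 were apart in either pair. No clock gene differed 2-fold between genotypes, where 0.243% of tested genes did among fasted and 0.368% among refed islets.

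The refeeding ratios of the 2 genotypes lay farthest apart for Per2 and Nfil3 among the 10 genes. The fall of Per2 was 0.50 smaller in KR than in WT on the log2 scale, and that of Nfil3 was 0.50 smaller. Of all tested genes 2.89% had a larger absolute difference than Per2 and 2.96% a larger one than Nfil3, where the median over all genes was 0.113. For Cry1 the difference was -0.0045 and for Clock 0.0018, and 97.8% and 99.2% of tested genes had a larger one. With 1 library per group the difference between responses has no test.

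Genes with the most similar pattern over the 4 libraries were named for 3 clock genes, by the Euclidean distance between log2(FPKM + 1) values centred on their mean, among 8567 named genes of mean FPKM of at least 5. Nearest to Arntl were Nomo1, at a distance of 0.0186, Gnb2, at 0.0269, and Atpaf1, at 0.031. Nearest to Per1 were Slco2a1, a prostaglandin transporter gene, at 0.0305, the kinase gene Pim1, at 0.0343, and Shroom3, at 0.036. Nearest to Dbp were Tomm34, at 0.0315, Nlgn2, at 0.0334, and the calmodulin-dependent kinase gene Camkk2, at 0.0433. With 4 libraries and 8567 candidates close matches are easy to find, and no test was made.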

How the data were processed

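RNA of pooled islets was selected for poly-A and prepared with a TruSeq RNA kit, per the labels' protocols. The submitters' processing notes name bcl2fastq 1.8.4, TopHat2 2.0.4 and the mouse build mm9. The deposited FPKM values carry a lower bound, an upper bound and a status, per the file headers; the program behind them is not given in the sources used here. Rows of the same symbol were summed, and only values with the status OK were used. Tested were 11953 genes whose mean FPKM reached 1 and which had a value in every library. The test was limma 3.58.1 (R 4.3.3, trended prior, two-sided) on log2(FPKM + 1), with feeding state and genotype as additive terms. This leaves 1 residual degree of freedom, counts the interaction as error and adds a prior of 7.58 degrees of freedom from all genes, so the p-values depend mainly on how much other genes vary between these pooled libraries. Fold changes on this scale understate those of low genes. The deposited bounds were read as 2 standard errors from the FPKM, and the fragments behind a value as the square of FPKM over standard error. Bounds and fragments cover counting error only. Alternatives were pseudocounts of 0.1 and 5, no filter, a mean FPKM of at least 5, rescaling, no trend, a robust prior, limma-voom on the implied fragments, rounded, and a model without the other factor. The 10 clock genes and all gene lists were chosen with earlier results of these data known. Named were all 10 genes, members of the lists that passed or belong to the first 2 lists, pattern neighbours and overlapping genes. List members named beyond this rule (Sirt1, Tsc22d3, Tspan4 and Sgk1) were chosen after their values were seen. The cell type markers Gcg, Cpa1, Pnlip, Cd3e, Adipoq and Plin1 did not pass or were not tested, and are also named beyond it. Some members of the gene lists are counted but not reported here by name.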

Additional observations from a re-analysis of the deposited data

Results flagged for a closer look

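The log2 ratio of KR over WT had opposite signs in the 2 feeding states for 6 clock genes. These contrasts were not tested, since each group has 1 library. The log2 ratio of KR over WT was -0.25 in fasted and 0.25 in refed islets for Nfil3, and -0.12 and 0.38 for Per2. For Arntl it was 0.05 and -0.20, for Per1 -0.04 and 0.15, and for Cry2 -0.01 and 0.07. After the libraries were rescaled by the median of ratios the Cry2 ratio was 0.008 in fasted and 0.116 in refed islets, so its signs were then the same. Nr1d2 stood at -0.04 in fasted and 0.14 in refed islets, and was also the 1 gene whose refeeding ratio had opposite signs, -0.04 in WT and 0.14 in KR.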

How the results depend on the processing

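The 6 clock genes that fell with refeeding kept that call under all 9 alternatives, except that Per2 lies under a mean FPKM of 5 and was not tested with that filter, which left 5 calls among 9 genes. The highest adjusted p over these alternatives was 0.0293, for Per2. None of the clock genes tested under each alternative was called between genotypes. The count of genes called between genotypes over the whole table was 151 and became 95 with a pseudocount of 5, 252 with a mean FPKM of at least 5, 228 with a robust prior, 748 with limma-voom, 5 without trend, 1 without the feeding term and 0 with no filter, beside 1892 at an unadjusted p under 0.05; the cause was not tested. The KR difference of Nfil3 turned from 0.004 to -0.029 with a pseudocount of 5 and to -0.16 with limma-voom. With bounds 2 times as wide, 0 clock genes were apart between genotypes when fasted and 0 when refed. No paired analysis was possible because each group has 1 library and the labels give no replicate numbers, and leaving out a library leaves no residual degree of freedom. Depth limits Nfil3 and Arntl most in refed KR, with 114 and 160 fragments.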

Other observations

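CREB target and immediate early genes, and genes that glucocorticoids induce, were described from 2 further lists, chosen with earlier results known. Of 9 tested CREB target and immediate early genes 4 rose and 4 fell after refeeding, beside 27.7% and 29.2% of all tested genes, 1 did not pass and the median change was -0.14 on the log2 scale. Egr1, a growth-response factor gene, had an FPKM of 1.30 fasted and 4.34 refed in WT islets, and 1.31 fasted and 10.8 refed in KR islets, and rose by 1.79 ± 0.22 (adjusted p = 0.000226). Crem, which encodes a cyclic AMP-responsive modulator, rose by 0.37 ± 0.08 (adjusted p = 0.00374). Sik1, a kinase gene that restrains light-driven shifts of the clock in mouse brain, fell by 0.85 ± 0.13 (adjusted p = 0.000594), and the stress factor gene Atf3 fell by 1.76 ± 0.14 (adjusted p = 2.6e-05). Per1 and Per2, both known CREB targets, fell in the same comparison.

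Of 9 tested glucocorticoid-induced genes 2 rose, 5 fell and 2 did not pass, beside the same shares of all genes, at a median change of -0.30. Fkbp5, a co-chaperone gene of the glucocorticoid receptor, had an FPKM of 45.2 fasted and 29.1 refed in WT islets, and 45.1 fasted and 27.9 refed in KR islets and fell by 0.65 ± 0.06 (adjusted p = 6.85e-05). Klf9 fell by 0.47 ± 0.07 (adjusted p = 0.000394). The cell cycle inhibitor gene Cdkn1a rose by 0.59 ± 0.07 (adjusted p = 0.000232). Tsc22d3 and Sgk1, which glucocorticoids also induce, did not pass.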
